A study of Mus musculus with 15 samples.

Results

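H3K27me3 islands were compared between regenerating wild-type (WT) mouse liver at 96 h and at 40 h. An island is a run of 1000 bp windows rich in reads of the ChIP library itself, with gaps of up to 4000 bp bridged. Each island as a whole is then compared with the control. All 13942 islands of the 96 h library and all 12092 of the 40 h library on chromosomes 1 to 19 with a false discovery rate (FDR) of 0.01 or below were used, together 26034 of the 50013 islands called at 0, 30, 40 and 96 h. The 2 libraries are among 15 samples of the series, which profiled H3K4me3, H3K27me3 and H3K9me3 by ChIP-seq in nuclei of WT liver and of liver whose hepatocytes lack Uhrf1. Both groups were C57Bl/6 WT mice of 8 to 12 weeks on normal diet, one with liver taken at 96 h and the other at 40 h of regeneration. The 0 h library of the same round was used to tell islands that returned from islands that had not been there, and the 30 h library to describe the time before. Each time had 1 library, so no test between times is given, and every difference compares 2 libraries of bulk tissue. In such tissue fewer cells carrying the mark and less of it in each cell cannot be told apart. The labels do not give how regeneration was started or how many animals each library came from.

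H3K27me3 is laid down by Polycomb repressive complex 2 and is read by Polycomb repressive complex 1, and it keeps regulators of other lineages silent in differentiated cells. When DNA is copied, parental histones carrying the mark are shared between the daughter strands, and the mark must be rebuilt on the newly added histones. In regenerating liver hepatocytes leave quiescence, copy their DNA and divide, so the mark passes through replication in an organ that otherwise divides little.

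Promoters that illustrate the classes described below are printed first, so that their base composition can be read beside the island values. Sequences are from RefSeq, build GRCm38.p6, and run 5′ to 3′ from 250 bases before to 50 bases after an annotated start, with every CG pair in capitals. The CG pair is the site of DNA methylation, and a high density of it defines CpG islands, where Polycomb complexes are recruited in mammals. Syt15 (chr14:34219796-34220095, + strand), Ckb (chr12:111672289-111672588, − strand), Apela (chr8:65037287-65037586, − strand) and Grm6 (chr11:50850435-50850734, + strand) lay in islands seen at 96 h and 0 h but not at 40 h.
Syt15: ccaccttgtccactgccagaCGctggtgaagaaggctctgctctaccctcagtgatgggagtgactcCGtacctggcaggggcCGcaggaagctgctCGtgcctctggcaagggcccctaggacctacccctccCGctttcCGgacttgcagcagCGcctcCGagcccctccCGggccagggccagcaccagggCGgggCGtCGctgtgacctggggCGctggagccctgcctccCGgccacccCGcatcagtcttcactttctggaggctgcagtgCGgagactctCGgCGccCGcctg
Ckb: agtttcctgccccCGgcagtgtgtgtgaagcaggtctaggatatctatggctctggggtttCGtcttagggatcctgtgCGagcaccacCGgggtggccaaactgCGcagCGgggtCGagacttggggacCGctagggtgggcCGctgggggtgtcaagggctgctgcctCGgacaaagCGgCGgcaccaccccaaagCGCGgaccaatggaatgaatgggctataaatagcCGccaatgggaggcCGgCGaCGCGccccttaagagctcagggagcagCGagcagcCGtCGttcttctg
Apela: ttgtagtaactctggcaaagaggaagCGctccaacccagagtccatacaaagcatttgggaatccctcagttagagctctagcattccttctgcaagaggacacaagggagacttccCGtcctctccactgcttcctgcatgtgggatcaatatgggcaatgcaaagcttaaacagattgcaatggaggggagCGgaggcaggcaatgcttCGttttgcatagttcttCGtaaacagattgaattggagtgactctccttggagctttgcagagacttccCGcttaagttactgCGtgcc
Grm6: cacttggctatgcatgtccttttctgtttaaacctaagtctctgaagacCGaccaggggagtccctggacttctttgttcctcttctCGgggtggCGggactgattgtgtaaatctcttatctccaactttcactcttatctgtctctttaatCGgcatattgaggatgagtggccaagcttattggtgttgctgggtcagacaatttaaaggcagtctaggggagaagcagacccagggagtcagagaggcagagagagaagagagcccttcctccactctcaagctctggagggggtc
Podn (chr4:108031905-108032204, − strand) lay in an island seen at 96 h and at neither 40 h nor 0 h.
Podn: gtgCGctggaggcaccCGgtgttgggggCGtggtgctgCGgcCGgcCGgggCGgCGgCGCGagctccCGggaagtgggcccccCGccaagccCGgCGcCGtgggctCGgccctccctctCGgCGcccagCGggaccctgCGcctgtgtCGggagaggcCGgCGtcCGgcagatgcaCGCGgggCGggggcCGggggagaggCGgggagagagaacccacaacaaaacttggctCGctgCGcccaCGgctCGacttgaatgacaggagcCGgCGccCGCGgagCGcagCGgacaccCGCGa
Ace3 (chr11:105994399-105994698, + strand) lay in an island seen at 40 h with none over it at 96 h.
Ace3: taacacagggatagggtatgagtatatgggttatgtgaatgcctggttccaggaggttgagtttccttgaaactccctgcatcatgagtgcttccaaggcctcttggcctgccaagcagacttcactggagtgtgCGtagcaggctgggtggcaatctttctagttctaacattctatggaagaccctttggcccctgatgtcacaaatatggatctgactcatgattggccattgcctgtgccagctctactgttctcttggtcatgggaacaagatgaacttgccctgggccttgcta
The 4 promoters of islands that returned held 19, 22, 7 and 4 CG pairs in the order printed, that of Podn held 41, and that of Ace3 held 1. Promoters in islands at 96 h and 0 h but not 40 h had a median of 12. Those in islands at 96 h and at neither 40 h nor 0 h had a median of 4, so Podn is not typical of them. The CG pair reads the same on both strands. Of the 16457 promoters with a sequence, 4.96% held no CG pair and 48.8% held 15 or more.

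Islands covered 482 Mb at 0 h, 417 Mb at 30 h, 378 Mb at 40 h and 458 Mb at 96 h. The 96 h islands held 21.4 M ChIP reads with a median fold over control of 1.56, and the 40 h islands held 12.8 M with a median fold of 1.45. The fold is the authors' ratio of ChIP to control reads after scaling to library size. From that scaling the 96 h library was 1.28 times as deep as the 40 h library. Depth moved with every count below in which 96 h was higher, and its part was not tested beyond the lists of equal length given in the closing section. Of the 96 h length, 188 Mb (41.0%) lay outside 40 h islands, and 59.7% of that was in an island at 0 h. Of the 40 h length, 108 Mb (28.6%) lay outside 96 h islands, and 40.1% of that was in an island at 0 h. Of the 209 Mb covered at 0 h and not at 40 h, 112 Mb (53.8%) were covered at 96 h.

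**Figure D1:**
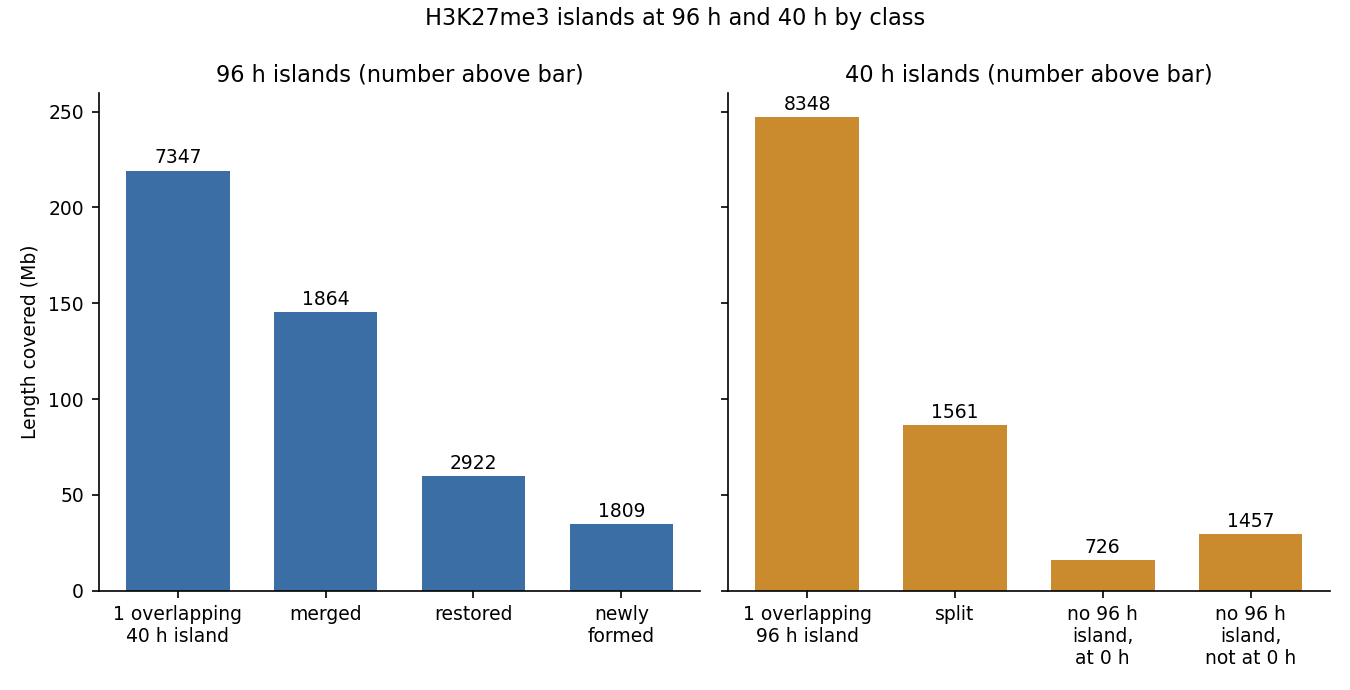
Length covered (Mb) by each class of island at 96 h (left) and at 40 h (right), with the number of islands above each bar and 1 library at each time. The 2922 restored islands cover 59.7 Mb, the 1864 merged islands cover 145 Mb, and the 2183 islands without a 96 h island cover 45.2 Mb at 40 h.

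Chromosome 18 stood apart from the other 18 chromosomes. It had 15.6 Mb in islands at 96 h and 19.9 Mb at 40 h, a ratio of 0.785, against ratios of 1.13 to 1.35 on the others. At 30 h it had 13.8 Mb, and at 0 h, too, less than at 96 h, so the 40 h library was the high one. No cause was tested. Counts without it are given in the closing section, and results that rest on it are named as such.

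**Figure D2:**
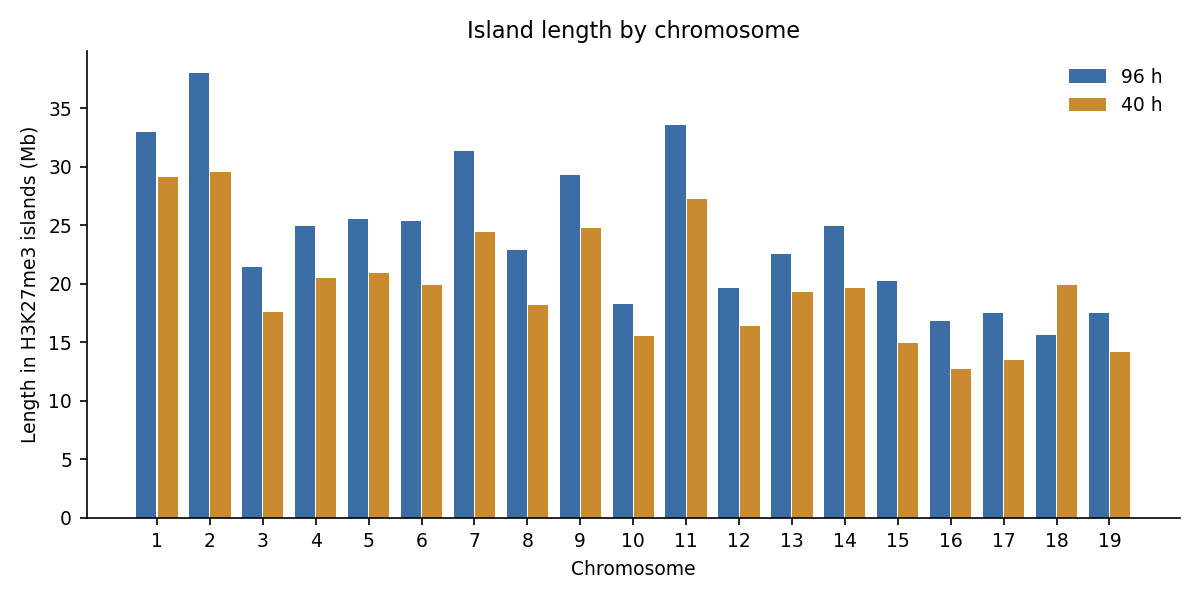
Length in H3K27me3 islands (Mb) on each chromosome at 96 h (left bar) and at 40 h (right bar). The 96 h bar is the higher on every chromosome except 18, where it stands at 15.6 Mb against 19.9 Mb at 40 h.

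Islands were restored over 2922 places at 96 h, meaning that they overlapped no 40 h island and at least 1 bp of a 0 h island. They covered 59.7 Mb, had a median fold of 1.55, and 432 (14.8%) reached a fold of 2. A promoter window, 1 kb either side of a gene's start, lay in 30.9% of them (95% exact Clopper-Pearson interval 29.3% to 32.6%, counting error only). Over all 96 h islands the share was near that, 30.3%. The 30 h list had an island over 53.1% of them, and a separate WT baseline list over 65.6%. Restored islands present in both the 0 h and the other baseline list numbered 1917.

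The restored island with the highest fold, 3.97, lay over Syt15, which encodes a synaptotagmin. It spanned 3 kb (chr14:34218001-34221000) and held 228 ChIP reads against 131 control reads at 96 h. No island was there at 40 h or 30 h, and one of 36 kb with a fold of 1.46 was there at 0 h. Tbx2, a T-box repressor of limb and heart development, had 1107 ChIP reads against 672 control reads over 16 kb at 96 h, a fold of 3.76. At 0 h its island spanned 247 kb with a fold of 2.14. Each fold is averaged over its own island, and the 0 h list used another control, so folds of the 2 times are not on one scale. Grin2d, which encodes a subunit of the NMDA glutamate receptor, had a fold of 3.65 at 96 h. Ckb, the brain form of creatine kinase, had 234 ChIP reads against 149 control reads over 4 kb, a fold of 3.58. For all 4 genes the 40 h and 30 h lists had no island at the promoter.

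The other 6 of the 10 restored islands of highest fold were short as well, between 4 and 11 kb. Apela, whose product is a ligand of the apelin receptor, had 511 ChIP reads over 7 kb and a fold of 3.40. Grm6, a glutamate receptor of the retina, had a fold of 3.40, and Nxph4, a neurexophilin, of 3.33. Comp, a protein of cartilage matrix, had a fold of 3.30, Htr2a, a serotonin receptor, of 3.25, and Atoh7, which specifies retinal ganglion cells, of 3.25. None of these 6 had an island at 30 or 40 h, and each had one at 0 h, of 5 to 28 kb with folds of 1.61 to 2.89.

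Islands were newly formed over 1809 places, with none at 40 h or 0 h. They covered 34.5 Mb, had a median fold of 1.43, and 49 (2.71%) reached a fold of 2. A promoter window lay in 12.1% of them (10.6% to 13.6%), against 30.3% of all 96 h islands. Of their length 67.1% was over 5 kb away from protein-coding genes, against 54.2% for restored islands and 56.0% over all 96 h islands. The 30 h list had an island over 28.7% of the newly formed islands and the other baseline list over 30.1%, so 969 (53.6%) were in no other WT list examined. Cut to equal covered length, 1040 newly formed islands were left.

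The newly formed island of highest fold, 3.93, lay over one start of Rgl1, an exchange factor for Ral GTPases. It spanned 2 kb (chr1:152764001-152766000) with 193 ChIP reads against 112 control reads, while another start of Rgl1 was in an island at 40 h and 0 h. Podn, which encodes the matrix proteoglycan podocan, had 327 ChIP reads against 265 control reads over 6 kb and a fold of 2.82. Naaladl2 had 240 against 187 over 4 kb and a fold of 2.93. Unc13b, which primes synaptic vesicles, had a fold of 2.50, and Angpt1, the ligand of the endothelial receptor Tie2, had one of 2.27. None of these last 4 had an island at the promoter at 0, 30 or 40 h.

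Merging accounted for the longest stretches. At 96 h, 1864 islands each joined 2 or more 40 h islands, 4306 pieces in all. Of these, 1452 joined 2 pieces and 412 joined 3 or more, up to 7. They covered 145 Mb, of which 34.9 Mb lay between the pieces, with a median of 14 kb in each island. A promoter window lay in 46.2% of merged islands (44.0% to 48.5%), against 30.3% of all 96 h islands. Merged islands were longer, with a median of 63000 bp against 24000 bp, and the part of length in that share was not tested. The median share of the length between pieces that had been in an island at 0 h was 100%. The fold over the merged island had a median of 1.64 at 96 h, and the fold over its pieces one of 1.49 at 40 h. It was higher at 96 h in 1625 of them and lower in 239. Both folds rest on the library scaling. With an overlap of at least 0.5 of the shorter island, 1140 merged islands were left, and among islands of fold 2 or more in both lists, 2. At 40 h only 96 islands reached that fold, against 1530 at 96 h.

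Control reads allow a check of the stretches between pieces, since the lists of both times used one control. In the 308 merged islands that held every piece whole, the control had 60.5 reads per kb between the pieces and 63.8 reads per kb in them, and it was lower between them in 230 (74.7%). The 96 h ChIP library had 50.5 reads per kb over these islands, and the 40 h library 33.8 reads per kb over the pieces. Reads between the pieces are not given in the 40 h list. The part of the lower control in the gaps was not tested.

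The 4 islands over the Hox clusters, which encode the homeodomain factors of the body axis, were all merged islands. At 96 h, all 39 Hox promoters were in an island and at 40 h, 21 were. In the series of times the number was 39 at 0 h, 12 at 30 h, 21 at 40 h and 39 at 96 h. Of all protein-coding promoters, 28.5% were marked at 0 h. All 18 that were marked at 96 h and not at 40 h (46.2%, against 10.3% of all protein-coding promoters) lay in gaps inside these 4 islands, so they count as 4 events rather than 18.

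Over Hoxb, 1 island of 281 kb (chr11:96144001-96425000) held 20752 ChIP reads against 14088 control reads at 96 h, a fold of 3.36. At 40 h the same stretch had 4 islands with folds of 1.78 to 2.04, which covered 63.3% of it. A gap of 88 kb between them held the starts of Hoxb2, Hoxb3, Hoxb4, Hoxb5, Hoxb6, Hoxb7, Hoxb8 and Hoxb9. The flanks of the cluster were called at 40 h and its centre was not. At 30 h a gap of 85 kb held the same starts except that of Hoxb2.

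Hoxa showed the same layout on chromosome 6, with 316 kb in 1 island at 96 h (chr6:52032001-52348000, 23914 ChIP reads against 16698 control reads, fold 3.27). At 40 h 4 islands with folds of 1.65 to 2.09 covered 72.2% of it. A gap of 64 kb held Hoxa2, Hoxa4, Hoxa5 and Hoxa6, and one of 17 kb held Hoxa13. At 30 h a single gap of 110 kb held the starts from Hoxa2 to Hoxa13. The gaps at 40 h were thus the shorter ones, and Hoxa3, Hoxa7, Hoxa9, Hoxa10 and Hoxa11 were marked at 40 h.

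Gaps were narrower over the other clusters. Over Hoxd (chr2:74601001-74825000, 224 kb, fold 3.27 at 96 h), the 40 h list had gaps of 17 kb at Hoxd13 and Evx2 and of 22 kb at Hoxd4. Over Hoxc (chr15:102724001-103087000, 363 kb, fold 3.10 at 96 h), it had a gap of 26 kb at Hoxc6 and Hoxc8 and covered 88.4% of the island. Per kb, the 96 h library had 73.9 to 78.9 ChIP reads over the 4 islands, and the 40 h library 33.5 to 35.6 over its pieces, at a depth 1.28 times lower.

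**Figure D3:**
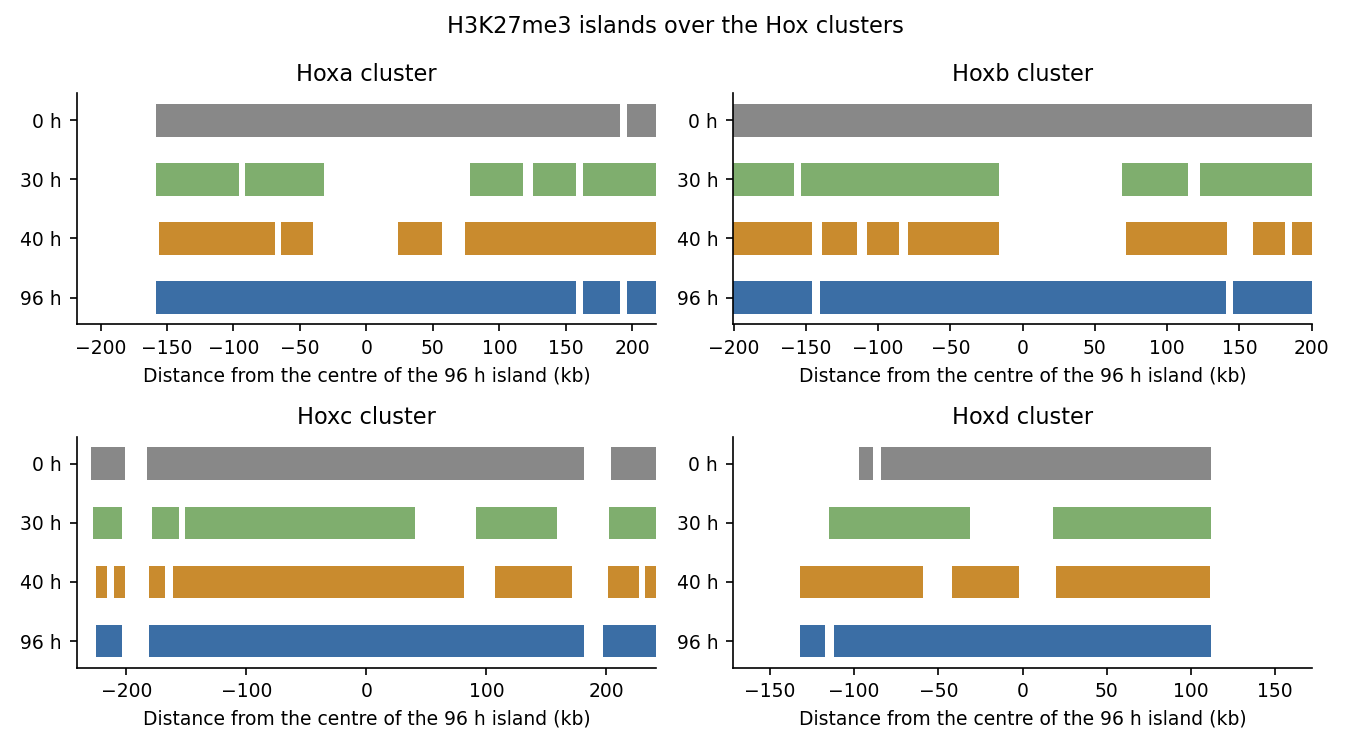
Islands over the 4 Hox clusters at 0, 30, 40 and 96 h (rows, top to bottom) by distance in kb from the centre of the 96 h island; each bar is an island, clipped at the panel's edge. The 96 h and 0 h bars run through the centre of each cluster, while the 40 h row has a gap of 88 kb in Hoxb and one of 64 kb in Hoxa, and the 30 h row one of 110 kb in Hoxa.

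MicroRNA genes of such stretches are shown with their sequences. The genes of miR-10a and miR-10b sit inside the Hoxb and Hoxd clusters, and those of miR-449a and miR-449c sit beside each other on chromosome 13. The mature 5p strands are printed 5′ to 3′ from RefSeq (GRCm38.p6) with the seed, bases 2 to 8, in capitals, because members of a family share it.
miR-10a-5p (chr11:96317186-96317208, + strand): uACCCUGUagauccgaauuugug
miR-10b-5p (chr2:74726074-74726096, + strand): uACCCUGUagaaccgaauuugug
miR-449a-5p (chr13:113037549-113037570, + strand): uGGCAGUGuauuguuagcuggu
miR-449c-5p (chr13:113036008-113036028, + strand): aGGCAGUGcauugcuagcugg
The hairpins of miR-449a and miR-449c lay in an island of fold 2.56 at 96 h (2044 ChIP reads against 1825 control reads) and of 1.95 at 0 h, with none at 30 or 40 h. The hairpins of miR-10a and miR-10b were likewise in no island at 30 and 40 h. Of 919 hairpins, 51 (5.55%) were in an island at 96 h and not at 40 h, and 43 of those were in one at 0 h. The opposite held for 21 (2.29%).

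Some other merged islands with many pieces lay over regulators of organ formation, and some did not. Among the latter, 1 of 306 kb on chromosome 11 joined 6 pieces and held no promoter. Another of 218 kb over olfactory receptor genes joined 6 pieces as well. The island over Pdx1, Gsx1 and Cdx2, homeobox genes of pancreas, brain and gut, spanned 237 kb with a fold of 2.27 at 96 h, and at 40 h it was in 6 pieces with folds of 1.45 to 1.89. The start of Cdx2 lay in a gap of 34 kb at 40 h, while Pdx1 was marked at both times. Over Cyp26b1, which breaks down retinoic acid, 7 pieces at 40 h joined into 328 kb at 96 h, with folds of 1.40 to 2.18 in the pieces and 1.94 in the whole. Over Pax2, a factor of kidney and eye, 5 pieces joined into 349 kb. Its ChIP reads were 20847 at 96 h against 11449 in the pieces at 40 h, with 20098 and 18929 control reads.

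The opposite change was seen in 1561 islands of 40 h, each of which overlapped 2 or more islands at 96 h. They covered 86.2 Mb at 40 h, and 18.9 Mb of it lay between the 96 h pieces. The fold over the pieces at 96 h had a median of 1.61 and the fold over the whole at 40 h one of 1.44. An example is the stretch over Chst11, a chondroitin sulfotransferase, with 4 islands of fold 1.30 to 2.00 at 96 h in place of 1 island of 245 kb and fold 1.66 at 40 h.

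Some 40 h islands had no counterpart at 96 h. There were 2183 of them, 18.1% of the 40 h list, and 726 of these were over a 0 h island while 1457 were not. They covered 45.2 Mb, had a median fold of 1.35, and 8.52% of them held a promoter window (7.38% to 9.77%). Over all 40 h islands 24.3% did. Chromosome 18 held 203. Cut to equal covered length, 3385 such islands were found.

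The strongest with a promoter lay over Ace3, a member of the angiotensin-converting enzyme family, with 254 ChIP reads against 313 control reads and a fold of 2.38 at 40 h, and of 2.55 at 0 h. Ccl17, a chemokine of T cells, had 280 against 429 reads and a fold of 1.91 at 40 h, with 1.77 at 0 h. Sema3g, a semaphorin of blood vessels, had a fold of 1.66 at 40 h and 1.71 at 0 h. Erlin2, a protein of the endoplasmic reticulum, had a fold of 1.65 at 40 h and no island at 0 h. Of the 2183 islands, 7 reached a fold of 2.

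Reads could be set side by side without a change of bounds in 80 islands that began and ended at the same base at both times. All 80 had equal control reads at both times. ChIP reads were divided by the relative depth of 1.28 before the ratio was taken. The median log2 ratio of 96 h over 40 h was 0.14, and it was above 0 in 64 islands. The 95% counting interval lay above 0 in 39, below 0 in 2 and included 0 in 39. A 1.5-fold difference was passed by 3 islands (3.75%) with 96 h higher and by 0 (0.0%) with 96 h lower. Divided by the reads in all islands in place of the library scaling, the median was −0.24, with 12 islands above 0, 4 intervals above 0 and 51 below. With no FDR limit and the library scaling kept, the median was −0.064. The direction of this median therefore depends on both settings.

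The highest ratio was that of the island over Celf6, an RNA-binding regulator of splicing, with 3651 ChIP reads at 96 h and 1714 at 40 h on 2740 control reads. Its log2 ratio was 0.73 (0.65 to 0.82). Over Klrb1b, a receptor of natural killer cells, there were 1944 reads at 96 h and 958 at 40 h on 1670 control reads, and the log2 ratio was 0.66 (0.55 to 0.77). Over Irx1, an Iroquois homeobox gene, there were 2876 reads at 96 h and 1562 at 40 h, a log2 ratio of 0.52 (0.43 to 0.61). Over Scnn1b, a subunit of the epithelial sodium channel, there were 3505 at 96 h and 1984 at 40 h, a log2 ratio of 0.46 (0.38 to 0.54). In each of these 4 the interval lay above 0 under the library scaling.

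At the low end of islands with a promoter, ratios were near 0. Ifi202b, an interferon-induced gene, had 541 reads at 96 h and 450 at 40 h on 963 control reads, and a log2 ratio of −0.09 (−0.28 to 0.09). Stfa3, a stefin of neutrophils, had 697 at 96 h and 570 at 40 h, a log2 ratio of −0.07 (−0.23 to 0.09). Their intervals included 0. The lowest ratio of all 80, −0.31, belonged to 6 kb of chromosome 2 without a promoter (chr2:98662001-98668000), which drew 130895 ChIP reads at 96 h, 126482 at 40 h and 213124 control reads.

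**Figure D4:**
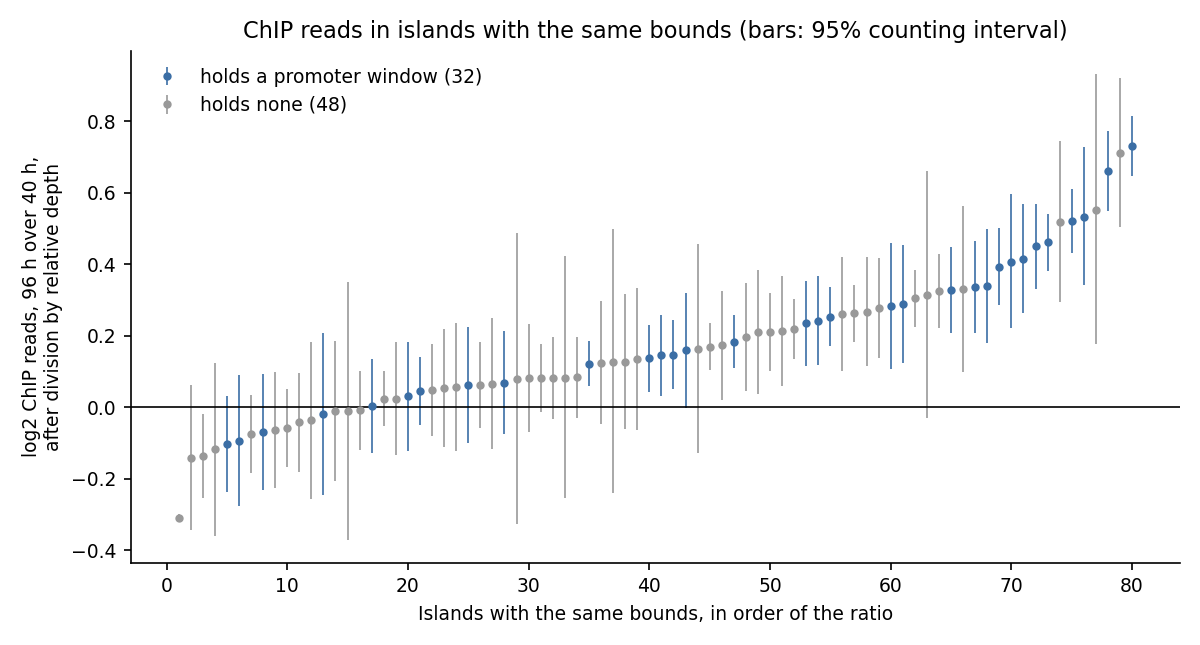
log2 ratio of ChIP reads, 96 h over 40 h after division by relative depth, for the 80 islands with the same bounds, in order of the ratio; bars are 95% counting intervals and colour marks the 32 islands that hold a promoter window. The median is 0.14 and the points run from −0.31 to 0.73, with 64 above 0 under this scaling and 12 when scaled to the reads in islands.

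A wider set of 5092 islands overlapped exactly 1 island of the other time. Their fold over control had a median of 1.57 at 96 h and 1.45 at 40 h, a median log2 ratio of 0.12. A 1.5-fold difference was passed by 148 (2.91%) with 96 h higher and by 0 (0.0%) with 96 h lower. These folds rest on the library scaling, and the pairs were not counted under scaling to the reads in islands. That scaling gave the 80 islands with the same bounds a median of −0.24. The 1699 pairs with a promoter at 96 h had a median log2 ratio of 0.20 and the 3393 without one had 0.09. The largest ratios included pairs in which the 96 h island was the shorter one. Over Zfp462, a zinc finger regulator of development, it was 9 kb with a fold of 3.81 at 96 h and 35 kb with a fold of 1.43 at 40 h. Over Phox2a, which specifies autonomic neurons, it was 10 kb with a fold of 3.13 at 96 h and 28 kb with a fold of 1.28 at 40 h. Over Tbr1, a factor of cortical neurons, the 96 h island was longer, 44 kb with a fold of 3.56, against 29 kb with a fold of 1.90 at 40 h. A fold is averaged over the length of its own island, so the bounds enter these ratios.

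At promoters, 5267 of 20665 protein-coding genes (25.5%) were marked at 96 h and 3612 (17.5%) at 40 h, a promoter being marked when its window touched an island. In the series of times the counts were 5880 at 0 h, 3721 at 30 h, 3612 at 40 h and 5267 at 96 h. Windows marked at 96 h and not at 40 h numbered 2119 (10.3%), and those marked at 40 h and not at 96 h numbered 464 (2.25%). Of the 2119, 1712 were marked at 0 h as well, out of 5880 promoters marked at 0 h. The 10.3% set beside gene lists is over all promoters, of which 28.5% were marked at 0 h. Of 2640 windows marked at 0 h and not at 40 h, 1712 (64.8%, interval 63.0% to 66.7%) were marked again at 96 h and 928 were not. Of the 2119, 991 were in restored islands, 220 in newly formed ones, 338 in merged ones and 570 in islands that overlapped 1 island of 40 h. For the 338 and the 570, part of the same stretch was thus in an island at 40 h. With at least 0.5 of the gene body in islands in place of the window, 1392 genes were marked at 96 h and not at 40 h.

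Outside the Hox clusters, 124 of 124 listed developmental regulators were marked at 0 h, 71 at 30 h, 83 at 40 h and 124 at 96 h. The 41 marked at 96 h and not at 40 h (33.1%, against 10.3% of all promoters) lay in 39 islands. The 10.3% is not restricted to promoters marked at 0 h, as all 124 were. Of the 5880 promoters marked at 0 h, 1712 were marked at 96 h and not at 40 h. Foxc2, a forkhead factor of vessels and mesenchyme, was in an island of 20 kb with 1529 ChIP reads and a fold of 3.80 at 96 h. Lhx9, a LIM homeobox gene of gonad and brain, had a fold of 3.63, and Shox2, a homeobox gene of limb and heart, of 3.42. None of these 3 promoters was marked at 40 h, although the Shox2 island overlapped a 40 h island of 26 kb and fold 1.60. All 3 were marked at 0 h with folds of 1.95 to 2.94. Among the 83 marked at both times, Foxl2, a factor of the ovary, had a fold of 3.25 at 96 h and 1.78 at 40 h, and Zic4, a zinc finger factor of the cerebellum, 3.13 at 96 h and 1.69 at 40 h.

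**Figure D5:**
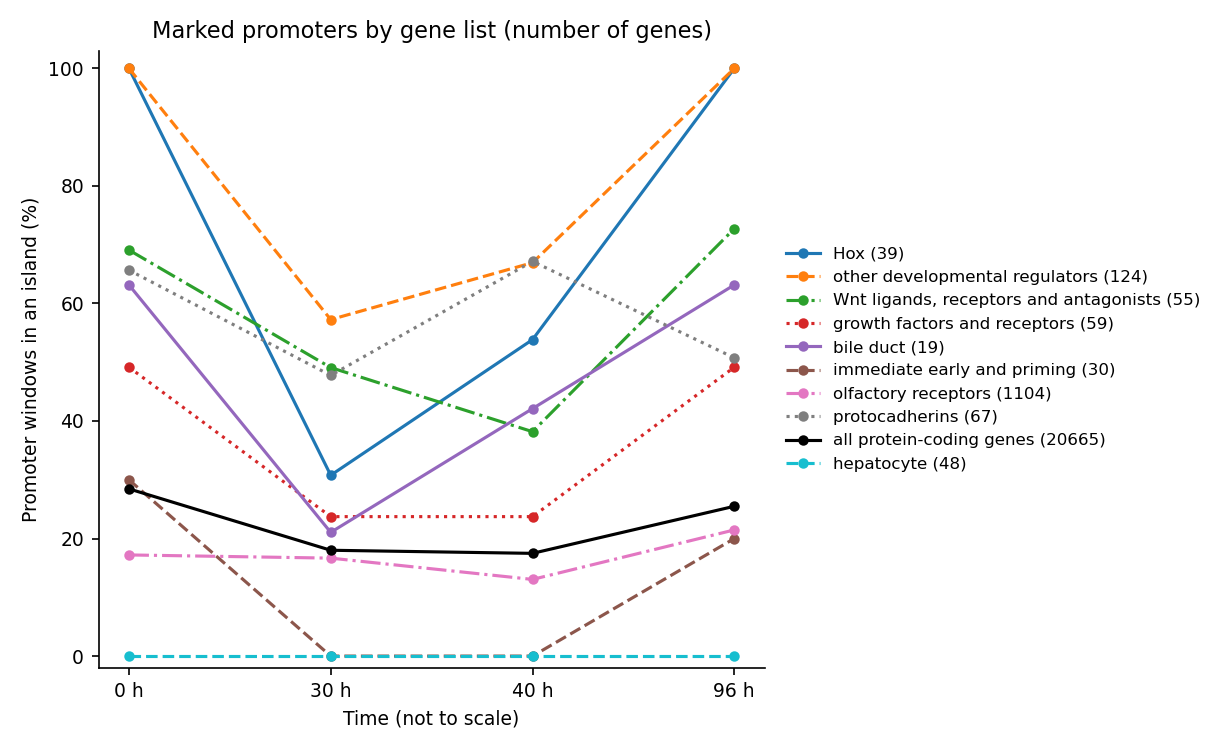
Share (%) of promoter windows in an H3K27me3 island at 0, 30, 40 and 96 h for gene lists, with the number of genes in brackets and 1 library at each time. Hox and other developmental regulators are at 100% at 96 h and 0 h and at 53.8% and 66.9% at 40 h, while protocadherins are lower at 96 h than at 40 h.

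Genes that open the regenerative response were examined next. Of 30 immediate early and priming genes, 9 were marked at 0 h, 0 at 30 h, 0 at 40 h and 6 at 96 h. The 96 h island of each of the 6 overlapped at least 1 island of 40 h, which did not reach the promoter window. The interval of the share marked at 96 h and not at 40 h, 7.71% to 38.6%, includes the 10.3% of all promoters. Klf4, a zinc finger factor, was in a 272 kb island with 18350 ChIP reads and a fold of 2.83 at 96 h, and at 40 h its start lay in a gap of 7 kb between islands of fold 1.98 and 2.07. Egr2 had a fold of 3.01, Nr4a2 of 2.37, Nr4a3 of 2.32 and Egr3 of 2.21 at 96 h, all rapidly induced transcription factors. Il6, the cytokine that primes hepatocytes, had a fold of 1.61 at 96 h and 1.62 at 0 h. Atf3, Gadd45b and Tnf were marked at 0 h and at no later time.

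Another list held the genes of D cyclins and of inhibitors of cyclin-dependent kinases (CDK). Of 12 cyclin D and CDK inhibitor genes, 5 were marked at 0 h, 1 at 30 h, 1 at 40 h and 3 at 96 h. The 2 marked at 96 h and not at 40 h are 16.7% (2.09% to 48.4%), an interval that includes the 10.3% of all promoters. One island of 80 kb (chr4:89236001-89316000) covered Cdkn2a and Cdkn2b, both inhibitors of CDK4 and CDK6 or their pathway, with 6218 ChIP reads against 4467 control reads and a fold of 3.18 at 96 h. At 40 h it was in 2 islands of fold 1.79 and 1.82 that covered 55.0% of it. The promoter window of Cdkn2a lay in the island of fold 1.79 and that of Cdkn2b in neither, although that island reached into Cdkn2b. At 30 h the window of Cdkn2b was in an island and that of Cdkn2a in a gap of 18 kb, although an island reached into Cdkn2a. Ccnd2, which encodes cyclin D2, was marked at 96 h (fold 2.12) and 0 h and at no time between, although its 96 h island overlapped 1 island of 40 h. Ccnd1 and Cdkn1c were marked at 0 h alone.

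Of 49 cell cycle and DNA replication genes, none was marked at 30, 40 or 96 h and 1 at 0 h. Of 48 hepatocyte genes, none was marked at any of the 4 times. These genes define the tissue given in the labels. Of 19 fetal liver and oncofetal genes, 14 were marked at 0 h, 4 at 30 h, 5 at 40 h and 11 at 96 h. The 6 marked at 96 h and not at 40 h are 31.6% of the list (12.6% to 56.6%), against 10.3% of all promoters. At 0 h 73.7% of the list was marked, against 28.5% of all promoters. Of its 9 windows marked at 0 h and not at 40 h, 6 were marked again at 96 h. Of all such windows 64.8% were. Igf2bp3, an RNA-binding protein of fetal and tumour cells, had a fold of 3.54 at 96 h, Scd2, a fatty acid desaturase of brain and fetal liver, of 2.98, and Hmga2, a chromatin protein of embryonic growth, of 2.64. Igf2, the fetal growth factor, was in a 189 kb island of fold 2.56 at 96 h. The promoter windows of these 4 were not marked at 40 h, although each of their 96 h islands overlapped at least 1 island of 40 h. For Igf2bp3 that was an island of 15 kb and fold 1.93. Peg10, Plag1 and Igdcc4 were marked at 0 h and not at 96 h.

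Signalling genes were counted by pathway. Of 55 Wnt ligands, receptors and antagonists, 38 were marked at 0 h, 27 at 30 h, 21 at 40 h and 40 at 96 h. Of these genes 19 (34.5%, interval 22.2% to 48.6%) were marked at 96 h and not at 40 h, against 10.3% of all promoters. At 0 h 69.1% of the list was marked, against 28.5% of all promoters. Of its 17 windows marked at 0 h and not at 40 h, 17 were marked again at 96 h, against 64.8% of all such windows. Wnt1 and Wnt10b shared an island of 46 kb with 2614 ChIP reads and a fold of 2.49 at 96 h, and the antagonist Wif1 had a fold of 2.41. Wnt11 had a fold of 2.20 at 96 h and 1.89 at 0 h. Of 59 growth factors and receptors, 29 were marked at 0 h, 14 at 30 h, 14 at 40 h and 29 at 96 h. Of these genes 15 (25.4%, interval 14.98% to 38.44%) were marked at 96 h and not at 40 h, against 10.3% of all promoters. At 0 h 49.2% of the list was marked. Of its 16 windows marked at 0 h and not at 40 h, 14 were marked again at 96 h. Tgfb2 had a fold of 2.59 at 96 h, Fgf10 of 2.57 and Bmp2 of 2.42, all 3 being secreted ligands. Tgfb1 and Erbb4 were marked at 0 h and not at 96 h.

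Polycomb genes themselves were counted as well. Of 31 such genes and H3K27 demethylases, 6 were marked at 0 h, 1 at 30 h, 1 at 40 h and 7 at 96 h, Cbx6 at all 4 times. The 6 marked at 96 h and not at 40 h are 19.4% (7.45% to 37.5%), an interval that includes the 10.3% of all promoters. Cbx7, a reader of H3K27me3, was in an island of 8 kb with 507 ChIP reads against 348 control reads and a fold of 3.32 at 96 h, and of 1.54 over a longer island at 0 h. At 40 h an island of fold 1.75 covered 5 kb (62.5%) of the 8 kb, and at 30 h one of fold 1.97 covered 4 kb. The promoter window met the 96 h island within 3 kb at its edge that the 40 h island left out. Bmi1, a core subunit of Polycomb repressive complex 1, was in a merged island of 45 kb and fold 3.28 at 96 h, and Pcgf1 in a restored one of 15 kb and fold 2.84. Phc1, Phf19 and Pcgf5 had folds of 1.60 to 1.95.

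Genes that mark the other cells of liver were counted in the same way, and for each of these lists the interval of the share marked at 96 h and not at 40 h included the 10.3% of all promoters. Of 19 bile duct genes, 12 were marked at 96 h and 8 at 40 h. The 4 marked at 96 h and not at 40 h were Cldn7, Prom1, Cftr and Sox9, the last a factor of duct cells with a fold of 1.80 at 96 h and 1.60 at 0 h. Of 18 stellate and fibroblast genes, 14 were marked at 96 h and 10 at 40 h, Lrat, the enzyme that stores retinol, being marked at 96 h (fold 1.54) and not at 40 h. Of 19 endothelial genes, 8 were marked at 96 h and 5 at 40 h. Of 18 macrophage and myeloid genes, 10 were marked at 96 h and 8 at 40 h, and of 21 lymphocyte genes, 9 were marked at 96 h and 7 at 40 h. The shares marked at 96 h and not at 40 h were 21.1% for bile duct, 22.2% for stellate, 15.8% for endothelial, 11.1% for macrophage and 14.3% for lymphocyte genes. The share of each cell type in the tissue was not measured, and its part in these counts was not tested.

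Large gene families differed. Of 1104 olfactory receptor genes, 111 (10.1%) were marked at 96 h and not at 40 h, near the 10.3% of all promoters, and 60 of the 111 had been marked at 0 h. Of 92 potassium channel genes, 19 (20.7%) were, all of them among the 79 (85.9%) marked at 0 h. At 0 h 28.5% of all promoters were marked. Among the 19 was Kcna7 with a fold of 2.66 at 96 h. Of 391 genes named Zfp, 26 (6.65%) were marked at 96 h and not at 40 h, and of 354 vomeronasal receptors, 17 (4.80%). Protocadherins, adhesion proteins of neurons, went the other way. Of 67, 18 (26.9%, against 2.25% of all promoters) were marked at 40 h and not at 96 h, and 7 (10.4%) at 96 h and not at 40 h. All 18 are Pcdha and Pcdhb genes of chromosome 18 and lay in 4 islands of 40 h, so this count rests on the chromosome that stood apart. The island with Pcdha6 to Pcdha9 had a fold of 1.41 at 40 h.

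Base composition differed between the sets of promoters. The median number of CG pairs in 300 bases was 12 for promoters marked at 96 h and 0 h but not at 40 h, 4 for those marked at 96 h alone of these 3 times, 9 for those marked at 96 h and 40 h, 4 for those marked at 40 h and not at 96 h, and 14 for all promoters. Within restored islands, promoters in islands of fold 2 or more had a median of 16 and the others of 9. Of windows marked at 0 h and not at 40 h, the share marked again at 96 h was 60.3% (56.1% to 64.5%) with 0 to 4 CG pairs, 57.9% (53.1% to 62.7%) with 5 to 9, 67.5% (61.3% to 73.3%) with 10 to 14, 65.5% (59.0% to 71.6%) with 15 to 19, 68.7% (63.6% to 73.4%) with 20 to 29 and 77.7% (72.1% to 82.5%) with 30 or more. Of windows marked at 40 h, the share still marked at 96 h was 82.3% (79.7% to 84.6%) in the lowest bin and 98.4% (96.3% to 99.5%) in the highest. The share of 0 h windows marked at 40 h showed no such order, with 59.9% in the lowest bin, 50.4% to 52.0% in the next 4 and 53.5% in the highest.

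The other marks of the series had been measured in liver at baseline. H3K4me3, the mark of promoters that are active or poised, overlapped 26.5% of restored islands by the first WT library and 13.5% by the second. Over all 96 h islands the shares were 27.7% and 12.9%, near those of restored islands. It overlapped 9.45% and 4.31% of newly formed islands and 8.11% and 2.61% of the 40 h islands without a 96 h island. Over all 40 h islands the shares were 21.9% and 8.21%. At promoters marked at 96 h and 0 h but not at 40 h, 55.9% had an H3K4me3 peak in the first library and 38.5% in the second, against 65.2% and 59.3% of all promoters with a sequence. H3K9me3, the mark of silent repeats, covered 0.88% of the length of restored islands and 1.09% of that of newly formed ones, against 1.32% of all 96 h island length. It covered 4.47% of the length of 40 h islands without a 96 h island, against 2.25% of all 40 h island length.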

How the data were processed

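H3K27me3 was profiled by ChIP-seq in liver nuclei, with 1 library each at 0, 30, 40 and 96 h. Reads were processed with Trimmomatic, FastQC 0.11.5, BWA and Picard on GRCm38.p4 (mm10) and islands called with SICER, per the submitters' processing notes. Windows were 1000 bp and gaps up to 4000 bp, as the names of the files deposited by the authors state. The deposited lists hold, for each island, the count of ChIP and of control reads made by the authors, without scaling. They also hold the authors' p-value and FDR against the control library, and the authors' fold, the ratio of ChIP to control reads after scaling to library size. Which library served as control is not given in the sources used here. The lists at 30, 40 and 96 h gave equal control reads over equal bounds, and the 0 h list used another control. Peak positions of H3K4me3 and H3K9me3 were used as deposited.

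Islands on chromosomes 1 to 19 with an FDR of 0.01 or below were kept. Classes were set by an overlap of at least 1 bp. Relative depth was taken from the ratio of ChIP to control scaling in the deposited folds. Promoter windows reached 1 kb either side of a start. Starts came from RefSeq (GRCm38.p6) for 16457 genes, from the gene end with an H3K4me3 peak for 2753, and both ends were used for 1452. Proportions carry 95% exact Clopper-Pearson intervals, which cover counting error only, as do the intervals of read ratios. No test between times was possible with 1 library each. Tables were handled in pandas 2.3.3 and numpy 2.4.6, intervals computed in scipy 1.17.1 and plots drawn in matplotlib 3.10.9, under Python 3.11.15. The steps were tested on simulated data.

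Members and gene lists were chosen with earlier results of these data known. Named genes are the 10 per class with the highest fold at a promoter, 1 per island. Those of islands with the same bounds are the 5 highest and 5 lowest ratios with at least 100 reads, and those of merged islands the 10 with the most pieces. From each gene list up to 5 per direction were taken by fold. The Hox clusters, Cdkn2b, Cdx2, Il6, Chst11, the microRNAs, the pairs with 1 island at each time, the chromosome 2 island, chromosome 18 and the Pcdha island were chosen after their values were seen. Alternatives were other FDR and fold limits, overlaps, lists of equal length, scalings and promoter definitions. Some genes that the rule would name are not reported here.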

Additional observations from a re-analysis of the deposited data

How the results depend on the processing

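Of 74 alternative values for 8 results, 54 stayed close to the value given, 18 moved and 2 changed sign. The cause was not tested for those that did. With islands of fold 2 or more alone, 654 islands were restored, 809 newly formed, 2 merged and 27 present at 40 h without a 96 h island. At 40 h 96 islands (0.79%) reached that fold and at 96 h 1530 (11.0%), so few 40 h islands were left to overlap. Under that limit 97.8% of the 96 h length lay outside 40 h islands, 1360 promoters were marked at 96 h and not at 40 h, and 15 the other way. Where earlier presence was asked of both the 0 h and the other baseline list, 1917 islands were restored and 2814 newly formed. With lists of equal covered length, 2280 islands were restored and 1040 newly formed, and 3385 of 40 h had no 96 h island. In the main lists these were 2922, 1809 and 2183. The 96 h length outside 40 h islands was 36.1% in the lists of equal length. There 1877 promoters were marked at 96 h and not at 40 h and 639 the other way, against 2119 and 464 in the main lists. With an overlap of 0.5 of the shorter island, 1140 were merged. The share of 96 h length outside 40 h islands was 41.5% without chromosome 18, 41.3% at an FDR of 1e-05 and 40.2% with no FDR limit. By gene bodies, 1392 genes were marked at 96 h and not at 40 h. The median log2 read ratio of islands with the same bounds was −0.064 with no FDR limit, −0.24 scaled to reads in islands and 0.50 with no scaling. Without chromosome 18, 2086 promoters (10.4%) were marked at 96 h and not at 40 h, and 429 (2.13%) the other way. The alternatives without chromosome 18 and with annotated starts alone were chosen after seeing the data. No paired analysis was possible because each time had 1 library. With 1 library at each time, differences between animals, preparations and times cannot be told apart. The 40 h library was the shallower one, and what depth did to the calling of weak islands was not tested.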
